A study of Mus musculus with 3 samples.

Results

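The genes that carry cholesterol to androgen in fetal Leydig cells were followed in the male gonad of mouse embryos lacking Cyp26b1, an enzyme that breaks down retinoic acid. The set was 9 genes, Scarb1, Star, Cyp11a1, Fdx1, Fdxr, Hsd3b1, Cyp17a1, Lhcgr and Mc2r, taken by name among 16620 named genes, with every probe that their RefSeq accessions carried on the array. They had 13 of 41153 probes, and all 9 were among the 13484 genes that passed the filter on dim signals. All groups shared the genotype Cyp26b1-/-, the male sex, the MCH mouse line and the tissue, whole gonad. The groups were 3 days of gestation (E12.5, E13.5 or E14.5, with E for embryonic day), each with 2 arrays that the submitters call biological duplicates. Whether a duplicate pooled embryos is not given in the sources used here, and arrays of a control genotype were not analysed here, so the values describe the course of expression in the mutant and not an effect of the mutation.

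Fetal Leydig cells lie between the testis cords and make the androgens that masculinise the fetus. Cholesterol enters the cell through receptors such as SCARB1 and is moved into mitochondria by STAR. There CYP11A1 cuts its side chain, with electrons passed from the reductase FDXR through the ferredoxin FDX1, and gives pregnenolone. The 3-beta-hydroxysteroid dehydrogenase HSD3B1 and the 17-hydroxylase and lyase CYP17A1 then act in the endoplasmic reticulum. LHCGR and MC2R are G protein-coupled receptors for luteinising hormone and for corticotropin, and both raise cyclic AMP.

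The RefSeq promoter table (GRCm38.p6) held 6 start sites of 5 of the genes, Cyp11a1, Hsd3b1, Fdx1, Fdxr and Lhcgr. The 250 bases before a start are shown for 3 genes with large rises and for Fdxr, which moved little, so that the letters before their starts can be set side by side. Capitals mark AGGTCA, the core half-site of many nuclear receptors, or the GATA-factor motif AGATAA, on either strand.
Cyp11a1 (chr9:58014702-58014951, plus strand): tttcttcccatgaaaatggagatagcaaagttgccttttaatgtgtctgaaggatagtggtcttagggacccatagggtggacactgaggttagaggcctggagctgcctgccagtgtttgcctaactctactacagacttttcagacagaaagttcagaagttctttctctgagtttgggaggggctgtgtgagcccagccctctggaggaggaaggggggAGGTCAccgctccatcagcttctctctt
Hsd3b1 (chr3:98859795-98860044, minus strand): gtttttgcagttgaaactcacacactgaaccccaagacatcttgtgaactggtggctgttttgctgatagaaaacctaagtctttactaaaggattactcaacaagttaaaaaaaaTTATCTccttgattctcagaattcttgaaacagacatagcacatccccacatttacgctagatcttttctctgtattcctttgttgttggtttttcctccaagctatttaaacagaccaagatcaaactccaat
Lhcgr (chr17:88792015-88792264, minus strand): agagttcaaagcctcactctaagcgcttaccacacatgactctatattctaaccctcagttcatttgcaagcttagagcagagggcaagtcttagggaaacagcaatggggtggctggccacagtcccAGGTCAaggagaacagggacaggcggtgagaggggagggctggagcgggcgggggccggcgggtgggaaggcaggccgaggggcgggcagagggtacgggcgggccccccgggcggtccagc
Fdxr (chr11:115276970-115277219, minus strand): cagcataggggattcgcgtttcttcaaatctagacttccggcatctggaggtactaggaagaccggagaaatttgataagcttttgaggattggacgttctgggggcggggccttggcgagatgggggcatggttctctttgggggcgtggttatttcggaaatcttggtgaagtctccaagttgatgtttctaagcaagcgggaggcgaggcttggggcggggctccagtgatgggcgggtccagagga

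AGGTCA stood at -28 from the Cyp11a1 start shown and at -122 from that of Lhcgr, which made 2 of 6 start sites against 14.0% of 32851 windows of the same length. The other Cyp11a1 start and the Fdx1 start, which are not shown, held neither AGGTCA nor AGATAA, although Fdx1 rose by 1.9 over the window. Any relation of these motifs to the rises was not tested. The GATA motif stood at -134 before Hsd3b1, 1 of 6 against 10.0% of all windows. The longer half-site of SF-1 (Nr5a1), AAGGTCA, which contains AGGTCA, was in 0 of 6 against 4.1%, and TATAAA was in 0 of 6 against 12.4%. The GC box GGGCGG, searched on both strands, was in 3 of 6 against 32.7%, with 3 copies before Fdxr, 4 before Lhcgr and 1 before Fdx1. These are matches of letters only. AGGTCA was added to the search after the other motifs had been counted.

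Levels are log2 signals relative to the 75th percentile of their own array, so 0 is a fairly bright signal, and a difference of 1 is a doubling. Levels of different probes cannot be set against each other. Between 65.3% and 70.1% of probes were well above background on an array, and 0 spots were saturated. The 2 arrays of E12.5 shared a slide that held no later array, so stage and slide cannot be told apart in comparisons with E12.5, and only E14.5 against E13.5 lay within a slide. In whole gonads, more cells of a type and more RNA per cell cannot be told apart. The p-values set a difference between stages against the spread between duplicate arrays, estimated with help from all tested genes. Any difference between slides is not part of that spread.

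Lhcgr was below background at E12.5 and has only a bound there, so counts against E12.5 are over the other 8 genes. From E12.5 to E14.5, 7 of these 8 rose and Mc2r did not pass the test, where 25.6% of all tested genes rose and 20.9% fell (limma, Benjamini-Hochberg adjusted p under 0.05). Without overlap between arrays, the same 7 were higher, as were 39.8% of tested genes, and Mc2r was lower, as were 35.7%. In the first day, 6 of the 8 rose, Mc2r fell and Fdxr did not pass, against 18.4% of tested genes that rose and 13.3% that fell. Again 7 were higher without overlap, as were 40.2% of tested genes, and Mc2r was lower, as were 31.7%. The fit also called Lhcgr higher in both comparisons, on E12.5 signals that mark no level. In the second day, all 9 were higher on both E14.5 arrays than on both E13.5 arrays, as were 26.4% of tested genes (29.1% were lower), but limma called 0 of 9. At an unadjusted p under 0.05, 8 of the 9 were higher, as were 10.9% of tested genes (7.52% were lower). The rises were unequal along the pathway, from 6.23 on the log2 scale for Cyp11a1 to 0.56 for Fdxr. The median change of the 8 genes without Lhcgr was 2.31 in the first day and 3.11 over the window, against 0.05 and 0.03 for all tested genes. With Lhcgr at its bound the medians of all 9 were 1.77 and 2.39.

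**Figure D1:**
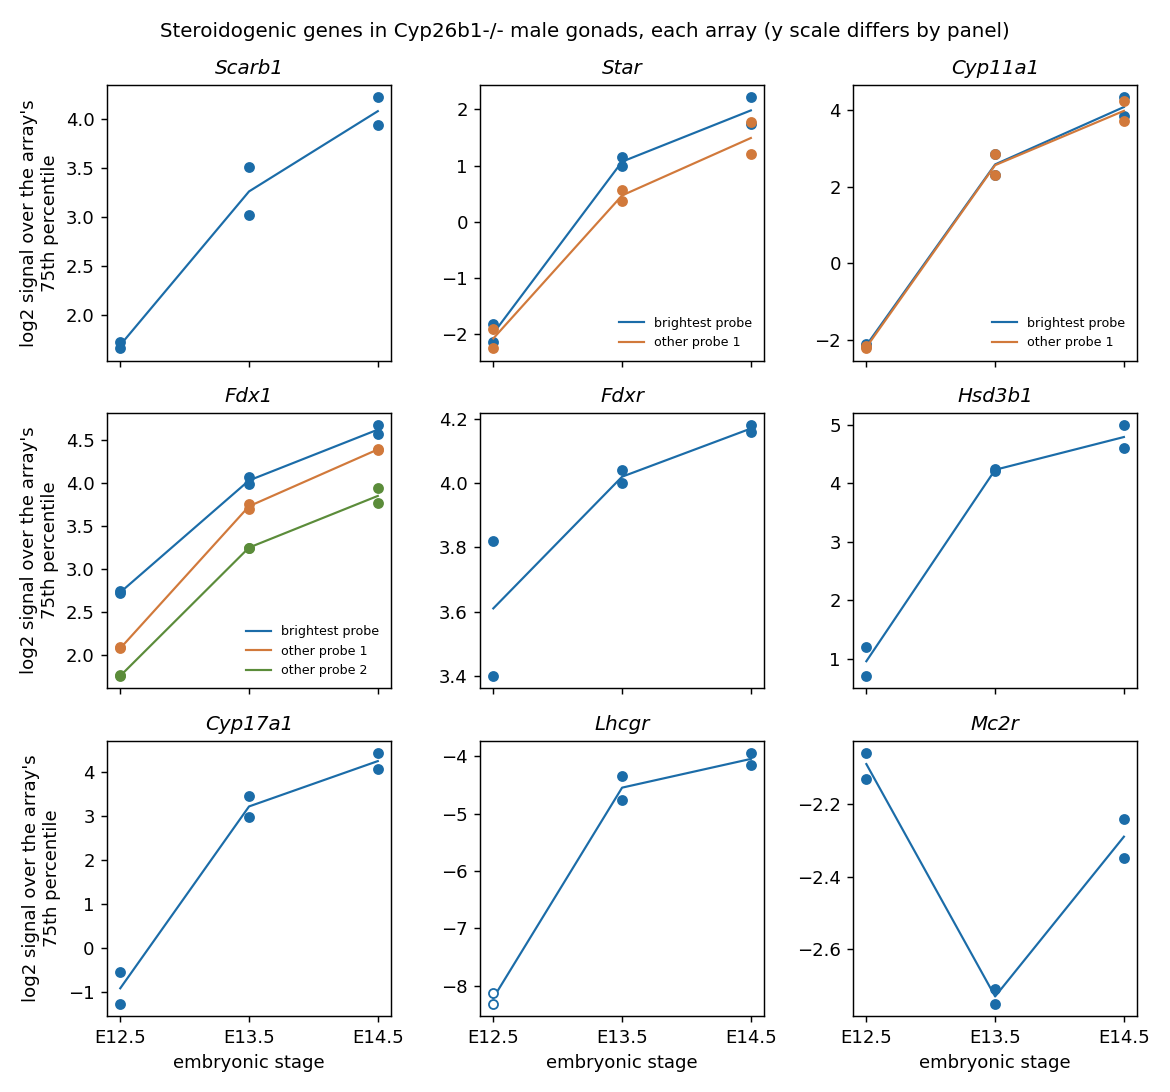
Log2 signal relative to the array's 75th percentile (y axis, scaled per panel) at E12.5, E13.5 and E14.5 (x axis). Each point is 1 array, lines join stage means, colours are the probes of a gene, and hollow points mark a stage at which the probe was above background on neither array. Apart from Mc2r, lowest at E13.5, the stage means of the genes stand in the order of the stages, although no gene passed the test between E13.5 and E14.5.

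The steps that bring cholesterol to the enzyme came first in the order of the pathway. Scarb1, a receptor for high-density lipoprotein, measured 1.66 and 1.72 on the E12.5 arrays, 3.02 and 3.51 on the E13.5 arrays, then 3.94 and 4.22 on the E14.5 arrays. The stages did not overlap, and the largest gap between duplicates was at E13.5. Scarb1 rose by 1.57 ± 0.19 (SE) in the first day (adjusted p = 0.00444) and by 2.39 ± 0.19 over the window, a 5.24-fold change (adjusted p = 0.00073). The second-day difference of 0.82 ± 0.19 did not pass (adjusted p = 0.125).

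Star, which moves cholesterol to the inner mitochondrial membrane, measured -2.14 and -1.81 on the E12.5 arrays, 0.99 and 1.15 on the E13.5 arrays, then 1.74 and 2.21 on the E14.5 arrays with its brighter probe. Its second probe measured -1.90 and -2.24, then 0.37 and 0.57, then 1.2 and 1.77. Both probes put the 3 stages in the same order with no overlap, and both had their widest duplicate gap at E14.5. The brighter probe rose by 3.05 ± 0.20 in the first day (adjusted p = 0.00149). Over the window the change was 3.95 with the brighter probe and 3.56 with the other, and each passed.

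Cyp11a1, the side-chain cleavage enzyme and first committed step, measured -2.18 and -2.12 on the E12.5 arrays, 2.31 and 2.85 on the E13.5 arrays, then 3.84 and 4.33 on the E14.5 arrays. The second probe followed closely, with -2.17 and -2.22, then 2.29 and 2.84, then 3.71 and 4.25. The stages lay far apart relative to the duplicates, whose gap was 0.06 at E12.5 and 0.54 at E13.5 with the brighter probe. Cyp11a1 rose by 4.73 ± 0.23 in the first day (adjusted p = 0.000757) and by 6.23 ± 0.23 over the window (adjusted p = 0.000195). Among the 12534 genes well above background on all 6 arrays, its change ranked 1 in the first day, 31 in the second and 1 over the window.

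The electron chain of CYP11A1 moved less than the enzyme itself. Fdx1, the ferredoxin, measured 2.72 and 2.74 on the E12.5 arrays, 4.07 and 3.99 on the E13.5 arrays, then 4.57 and 4.67 on the E14.5 arrays with its brightest of 3 probes. Its duplicates were the closest pairs of any of the rising genes at E12.5, and the stages did not overlap. Fdx1 rose by 1.30 ± 0.10 in the first day (adjusted p = 0.00194) and by 1.90 ± 0.10 over the window (adjusted p = 0.00044). The other 2 probes gave 2.31 and 2.09 over the window.

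Fdxr, the reductase that feeds FDX1, measured 3.82 and 3.40 on the E12.5 arrays, 4.04 and 4.0 on the E13.5 arrays, then 4.16 and 4.18 on the E14.5 arrays. Its stages did not overlap, but the gap between the E12.5 duplicates was as wide as the first-day difference of 0.41 ± 0.16 (adjusted p = 0.0918). Over the window Fdxr rose by 0.56 ± 0.16, a 1.47-fold change (adjusted p = 0.029). Without the second E12.5 array the change was 0.35 (adjusted p = 0.0798), and without the first E14.5 array it was 0.57 (adjusted p = 0.0846). Leaving out the other E14.5 array gave an adjusted p of 0.0999, and the call was also lost without either E13.5 array (adjusted p = 0.0517 for each) and with median scaling, at 0.41 (adjusted p = 0.0862).

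Hsd3b1 and Cyp17a1 make progesterone and androgen precursors. Hsd3b1 measured 0.71 and 1.21 on the E12.5 arrays, 4.21 and 4.24 on the E13.5 arrays, then 4.6 and 4.99 on the E14.5 arrays. Cyp17a1 measured -1.27 and -0.56 on the E12.5 arrays, 2.98 and 3.45 on the E13.5 arrays, then 4.06 and 4.42 on the E14.5 arrays. Both genes had their widest duplicate gap at E12.5, where they were lowest, and neither had stages that overlapped.

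In the first day Hsd3b1 rose by 3.27 ± 0.21 (adjusted p = 0.00149) and Cyp17a1 by 4.13 ± 0.28 (adjusted p = 0.00153). Over the window Hsd3b1 rose by 3.83 ± 0.21, and Cyp17a1 by 5.16 ± 0.28 (adjusted p = 0.00044 for both). Hsd3b1 has near-identical copies in the mouse genome, and the specificity of its single probe was not tested.

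Lhcgr, the luteinising hormone receptor, measured -8.31 and -8.12 at E12.5, where neither array was well above background. On all 4 later arrays it was above background, with -4.76 and -4.34 for E13.5, then -4.16 and -3.95 for E14.5. The stages did not overlap, but the E12.5 values mark no level. Against the lowest signals called above background on the E12.5 arrays, Lhcgr was 3.4-fold higher at E13.5 and 4.79-fold higher at E14.5. These are approximate bounds, because a Gnas probe not called above background measured -6.37 and -6.12 on the E12.5 arrays. The lowest called signals there were -6.41 and -6.21. With normexp background correction the first-day change of Lhcgr was 1.27 on the log2 scale, smaller than its bound. These bounds were not tested. The adjusted p of the fit (0.000757 and 0.000281) rests on the E12.5 signals as measured, below background.

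Mc2r, the corticotropin receptor, took another course. It measured -2.13 and -2.06 on the E12.5 arrays, -2.71 and -2.75 on the E13.5 arrays, then -2.24 and -2.35 on the E14.5 arrays. E13.5 was lowest, E14.5 lay between, and no stages overlapped. Mc2r fell by 0.64 ± 0.10 on the log2 scale in the first day (adjusted p = 0.00931), a call that was lost without the second E13.5 array (adjusted p = 0.0642). The change over the window of -0.20 ± 0.10 did not pass (adjusted p = 0.164). Mrap, whose protein carries MC2R to the cell surface, rose by 3.07 ± 0.11 over the same window (adjusted p = 0.000187).

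The genes were ordered by the rise of their brightest probe. Neighbours were held apart only where the ranges of the 4 between-array differences did not meet. Over the window Cyp11a1 (5.96 to 6.51) stood above Cyp17a1 (4.62 to 5.69), and Cyp17a1 above Star (3.56 to 4.35). Star and Hsd3b1 (3.39 to 4.27) could not be ordered, and both stood above Scarb1 (2.22 to 2.56). Scarb1 stood above Fdx1 (1.83 to 1.96), Fdx1 above Fdxr (0.34 to 0.78), and Fdxr above Mc2r (-0.29 to -0.11). Another Fdx1 probe changed by 2.31, within the range of Scarb1, so the places of Scarb1 and Fdx1 depend on the probe. Lhcgr, with only a bound, has no place in this order.

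After the first day the order was already visible in part. Cyp11a1 (4.42 to 5.03) overlapped Cyp17a1 (3.55 to 4.72), and Hsd3b1 (3.0 to 3.53) overlapped Star (2.80 to 3.29). Cyp17a1 stood just above Hsd3b1, and Star stood above Scarb1 (1.30 to 1.85), which overlapped Fdx1 (1.25 to 1.35). Other probes gave first-day changes of 2.54 for Star and of 1.65 and 1.48 for Fdx1, so these places also depend on the probe. The order of the rises by size thus did not follow the order of the reactions, since Scarb1 and Star act before Cyp11a1 and rose by less. An order by size is not an order in time, which was not tested.

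**Figure D2:**
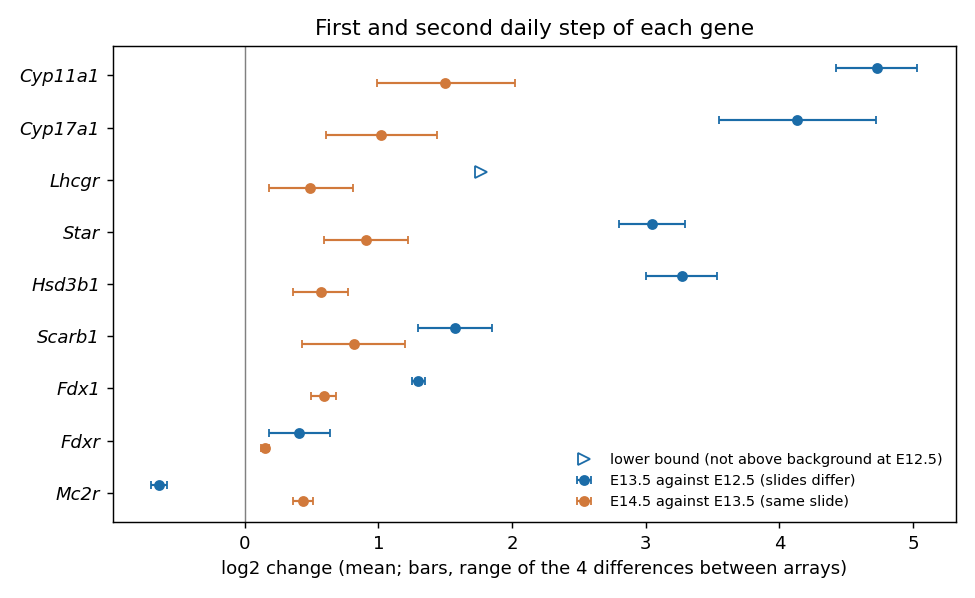
Log2 change of the brightest probe of each gene from E12.5 to E13.5 (blue) and from E13.5 to E14.5 (orange). Points are differences of stage means, bars span the 4 differences between single arrays, and the hollow triangle is the approximate lower bound for Lhcgr. Star, Cyp11a1, Cyp17a1 and Hsd3b1 changed by 3.05 to 4.73 in the first day and differed by 0.57 to 1.5 in the second.

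In the second day, within 1 slide, Cyp11a1 differed by 1.5 ± 0.23 (adjusted p = 0.0897) and Fdx1 by 0.59 ± 0.10 (adjusted p = 0.0938). The rest ran from 1.02 for Cyp17a1 to 0.15 for Fdxr, and all 13 probes were higher on both E14.5 arrays. Of all tested genes, 0.0445% were called higher and 0.00742% lower by limma in this comparison. The gene that missed an unadjusted p under 0.05 was Fdxr. With normexp background correction 5 passed (Star, Cyp11a1, Cyp17a1, Fdx1 and Scarb1), with a trended robust prior 4 (the same without Cyp17a1) and with median scaling 1 (Cyp11a1). Median scaling also left 8 of 9 genes without overlap in place of 9.

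The duplicates themselves were not level. At E14.5 the second array was higher than the first for 8 of 9 genes, by a median of 0.28, at E13.5 for 6 of 9, by 0.16, and at E12.5 for 8 of 9, by 0.07. The summed level of the 9 genes on a linear scale, relative to the array's 75th percentile, was 116 and 140 on the E14.5 arrays, 74.9 and 82.8 at E13.5, and 26.6 and 24.3 at E12.5. The same sum for 7 erythroid markers was 32.0 and 16.9 on the E14.5 arrays, and for 7 mesonephros and duct markers 1.22 and 0.786. The part of tissue makeup in these gaps was not tested.

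The second-day difference was then set against the first-day rise in the same fit. The second was smaller than the first by 3.22 ± 0.40 for Cyp11a1 (adjusted p = 0.0464), the only gene of the 8 with a readable E12.5 level to pass, where 0.282% of tested genes were lower and 0.215% higher. The fit also called Lhcgr lower, which its E12.5 signals do not allow to be read. Hsd3b1 missed the threshold at -2.70 ± 0.36 (adjusted p = 0.0501), and so did Star at -2.14 ± 0.34 and Cyp17a1 at -3.11 ± 0.49 (adjusted p = 0.0619 for both). Mc2r went the other way at 1.08 ± 0.18 (adjusted p = 0.0686). The Cyp11a1 call was lost whichever array was left out, with adjusted p between 0.0548 and 0.156, and since E12.5 lay on its own slide, the contrast cannot be told apart from a slide difference.

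By E13.5, Hsd3b1 had covered 85.2% of its log2 change over the window, Cyp17a1 80.1%, Star 77.1%, Cyp11a1 75.9%, Fdxr 72.8%, Fdx1 68.7% and Scarb1 65.8%. On a linear scale the share was 68.8% for Fdxr, 65.1% for Hsd3b1, 53.9% for Fdx1, 50.1% for Star, 47.7% for Cyp17a1, 46.6% for Scarb1 and 34.4% for Cyp11a1. The order of the shares thus depends on the scale. The differences between these shares were not tested.

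The authors' deposited table, with 1 value per stage, gave changes over the window of 6.21 for Cyp11a1, 5.14 for Cyp17a1, 3.93 for Star, 3.81 for Hsd3b1, 2.37 for Scarb1, 1.88 for Fdx1, 0.54 for Fdxr and -0.22 for Mc2r on the log2 scale. The order was that of the scanner values, which come from the same arrays, so this is not an independent check.

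With their brightest probes, most other enzymes of steroid metabolism did not share the large rises. Of 28 listed, 24 were tested, and over the window 3 rose and 6 fell, with a median of -0.06, where 25.6% of all tested genes rose and 20.9% fell. The rises were those of Hsd3b6, Por and Cyb5r3. The falls include Hsd3b2, whose probes conflict, and Hsd3b5, which was below background at E14.5. Por, which passes electrons to CYP17A1, rose by 0.90 ± 0.11 (adjusted p = 0.0024), and Cyb5r3, a reductase of cytochrome b5, by 0.48 ± 0.15 with its brighter probe (adjusted p = 0.0435) and 0.33 with the other, which did not pass. Cyb5a, the cytochrome b5 that aids the lyase step, fell by 0.71 ± 0.15 on the log2 scale (adjusted p = 0.0135), and Tspo, a mitochondrial cholesterol-binding protein, fell by 0.74 ± 0.18 (adjusted p = 0.0192). Hsd17b12 and Hsd11b2 also fell.

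Hsd17b3, the enzyme that makes testosterone from androstenedione, measured 0.18 and 0.42 on the E12.5 arrays, -0.24 and 0.41 on the E13.5 arrays, then 0.39 and 0.50 on the E14.5 arrays. Its stages overlapped, and the change of 0.14 ± 0.22 did not pass (adjusted p = 0.627). Cyp19a1, the aromatase, was not above background on both arrays of any stage and was not tested.

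The Hsd3b family was divided. Hsd3b6 rose by 1.70 ± 0.19 (adjusted p = 0.00189), Hsd3b5 fell to below background at E14.5, and Hsd3b4 at -0.73 ± 0.40 did not pass. The brightest probe of Hsd3b2 fell by 3.26 ± 0.39 on the log2 scale (adjusted p = 0.00215), while another of its probes changed by 3.35 upward, and the third was above background on 1 of 6 arrays. With copies this alike, and probes of 1 gene in conflict, the assignment of signal within the family is uncertain, Hsd3b1 included.

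Of 15 tested genes of receptor signalling towards Star, 4 were higher over the window and 3 lower, with a median of -0.10. These shares are near those of all tested genes (25.6% and 20.9%). Besides Mrap, the regulatory subunit gene of protein kinase A Prkar2b rose by 1.81 ± 0.14 (adjusted p = 0.000723), and Prlr, the prolactin receptor, by 0.80 ± 0.13 (adjusted p = 0.00509). Crem, a cyclic AMP-responsive factor, rose by 0.41 ± 0.10 with the brightest of 5 probes (adjusted p = 0.0181). Of the others, 2 gave 0.35 and 0.46 and passed, while 2 gave -0.03 and -0.11. The catalytic subunit gene Prkacb fell by 0.88 ± 0.13 and the factor Creb1 by 0.86 ± 0.13 on the log2 scale (adjusted p = 0.00422 and 0.00386) with their brightest probes. The other Prkacb probe gave -0.03, and the other Creb1 probes -0.17 and -0.33, none of which passed, so these falls rest on 1 probe each. The growth hormone receptor gene Ghr was lower with all 3 probes.

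Among 25 tested regulators of fetal Leydig cells, 6 rose and 5 fell over the window, with a median of -0.20, again near the shares of all tested genes (25.6% and 20.9%). Nr5a1, the orphan receptor SF-1 that drives many steroidogenic genes, rose by 0.60 ± 0.10 (adjusted p = 0.00672), far less than Cyp11a1 or Star. Jag1, a Notch ligand, rose by 1.27 ± 0.12 with its brighter probe (adjusted p = 0.00101), while the other gave -0.15 and did not pass. Among the other Notch genes of the list, Notch3 rose by 0.75, while Notch2 at -0.42 and Hes1 at -0.18 did not pass. Gli1, a target of hedgehog signalling, rose by 1.13 ± 0.15 (adjusted p = 0.00321). Of the other hedgehog genes tested, Ptch1 at -0.36 and the ligand gene Dhh at -0.20 did not pass. Nr5a2, a receptor related to SF-1, fell by 1.90 ± 0.27 on the log2 scale (adjusted p = 0.00333), and Zfpm2, the GATA cofactor, fell by 1.07 ± 0.12 (adjusted p = 0.00162). The probes of the GATA factors disagreed. Gata6 fell by 0.75 ± 0.10 on the log2 scale with its brightest probe (adjusted p = 0.00278) and gave -0.76 with another, but the third gave 0.76 and did not pass. The brighter Gata4 probe gave -0.07 ± 0.12 and did not pass, while the other gave -1.09 (adjusted p = 0.00486).

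The label of the cell type was set against other fetal Leydig markers in the same arrays. Of 8 tested, 6 rose, with a median of 1.89 over the window, where 25.6% of all tested genes rose and 20.9% fell. Crhr1, a receptor for corticotropin-releasing hormone, rose by 3.50 ± 0.13 (adjusted p = 0.000206), and Inha, the inhibin alpha subunit, by 2.03 ± 0.12 (adjusted p = 0.000488). Ren1, a renin whose close copy Ren2 may share its signal, rose by 4.21 ± 0.45 (adjusted p = 0.0016). Thbs2, Itih5 and Agtr1a also rose, whereas Vnn1 and Vcam1 did not pass. The second Agtr1a probe gave 0.27 over the window where the first gave 0.98.

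Insl3, the peptide hormone of Leydig cells, was left out of the counts because the 2 design versions in the files disagree on its probe. The version of the E12.5 files named the probe Insl3 and that of the later files named it Jak3, and the Insl3 locus lies within that of Jak3 in RefSeq. This probe measured -0.06 and -0.02 on the E12.5 arrays, 3.96 and 4.24 on the E13.5 arrays, then 5.14 and 5.66 on the E14.5 arrays, with no overlap. All 13 probes of the 9 genes had the same name in both versions.

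Adrenal cortex shares this pathway, and 3 of 5 tested adrenal markers rose over the window, where 25.6% of all tested genes rose and 20.9% fell. These were Mrap, Mgarp with 3.45 ± 0.11 (adjusted p = 0.000187) and Akr1b7 with 2.08 ± 0.16 (adjusted p = 0.000692), while Akr1b8 at -0.12 ± 0.12 and Mc2r did not pass. Cyp21a1 and Cyp11b2, which define the adrenal steps from progesterone to corticosteroids, were above background on 0 of 6 arrays. Cyp11b1 was not tested.

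Markers of other cells were counted in the same way, to be set beside the 25.6% of all tested genes that rose and the 20.9% that fell. Over the window 2 of 10 Sertoli markers rose and 4 fell, among them Sox9 by 1.5 ± 0.20 on the log2 scale (adjusted p = 0.00307). Of the other lists, 4 of 8 germ cell markers rose and 1 fell, 5 of 7 macrophage markers rose, 2 of 7 endothelial markers fell, 5 of 7 erythroid markers fell, and 1 of 7 mesonephros markers rose and 4 fell. A summed linear level is set mostly by the brightest probes of a list and does not describe its other members. For the Sertoli markers it ran from 133 to 153 at E12.5 and from 173 to 181 at E14.5, with 37.7% to 63.7% of it from Cst9. For the erythroid markers it ran from 114 to 148 and then from 16.9 to 32.0, with 46.0% to 75.7% from Hbb-y. At E12.5 the macrophage markers summed to 1.96 and 2.37, and at E14.5 to 4.26 and 4.82, of which Lyz2 made 49.8% to 62.3%. Apart from Ret, which was above background on 0 of 6 arrays, all markers of these 6 lists passed the filter. Their part in the rises of the steroidogenic genes was not tested.

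**Figure D3:**
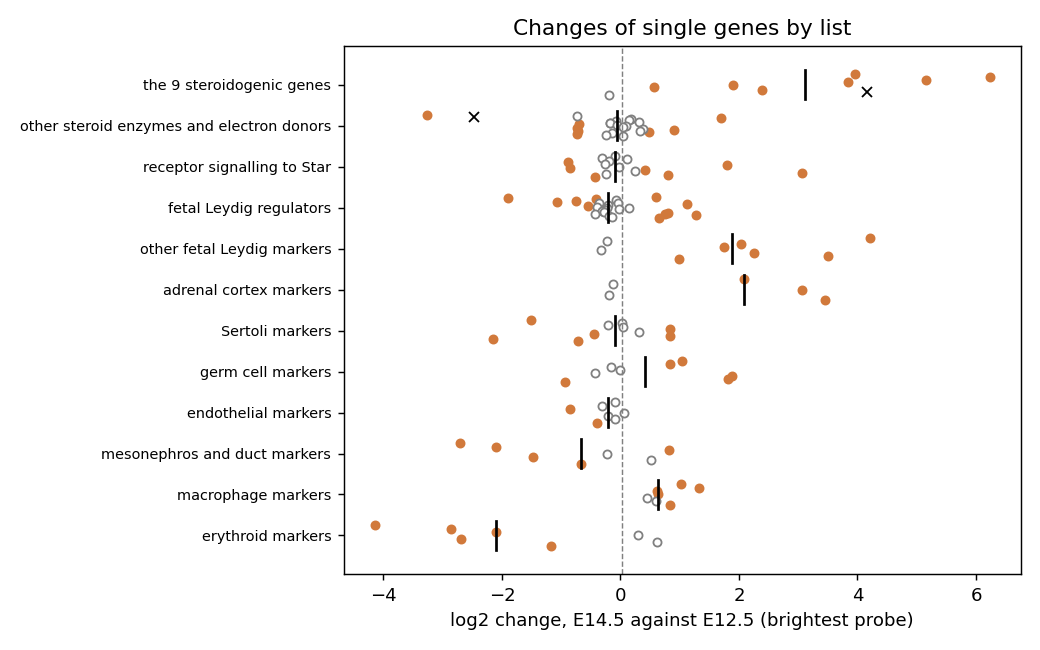
Log2 change from E12.5 to E14.5 (x axis) of each tested gene in 12 lists (y axis). Filled points passed the test, hollow points did not, crosses are genes above background on neither array of one of the stages, black bars are medians without the crosses, and the dashed line is the median of all tested genes. The 9 steroidogenic genes reach 6.23, beyond any gene of the other lists shown.

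The genes whose course was most like that of Star, Cyp11a1, Cyp17a1 and Hsd3b1 were sought by the root mean square difference between their 6 values, each taken from its own E12.5 mean, and the mean course of those 4. Adh1, an alcohol dehydrogenase that can oxidise retinol, was nearest at 0.093, and measured -0.80 and -0.21 on the E12.5 arrays, 3.18 and 3.51 on the E13.5 arrays, then 4.23 and 4.51 on the E14.5 arrays. It rose by 4.88 ± 0.23 over the window (adjusted p = 0.00038), and its other probe gave 5.23. Dpep3 at 0.19 and Tecta at 0.194 were below background at E12.5, so their likeness there is not measured. Dmrtc2 followed at 0.214 and M1ap, a meiosis gene, at 0.287. These genes were picked as the nearest of all tested genes, so their closeness follows from the search. A like course in whole gonads does not place them in the same cells. For comparison, Cyp17a1 lay at 0.305, Hsd3b1 at 0.638, Star at 0.651 and Cyp11a1 at 0.998 from the same mean.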

How the data were processed

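RNA from male gonads was labelled with Cy3 and hybridised to 1-colour Agilent arrays, per the labels' protocols. Per the file headers, the deposited scanner files hold background-subtracted, spatially detrended intensity per spot from Agilent Feature Extraction 9.5, which the submitters' processing notes also name, with no scaling between arrays, together with the scanner's flags (outliers, saturation, signal well above background). The authors' deposited table holds 1 ratio per probe and stage, with a reference that is not stated. Its log2 differences were used only beside the scanner values.

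After removal of outlier spots and averaging of repeats, each log2 signal was taken relative to the 75th percentile of its array. Of 41174 probes, 21 were missing on an array. Genes were named from RefSeq accessions of the newer design version in the files, then the older. The brightest probe stood for a gene, and had to exceed background clearly on both duplicates of some stage. A change from a stage below background on both arrays is an approximate bound against the lowest signals called above background.

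The tests came from limma 3.58.1 under R 4.3.3 (lmFit and eBayes, all 6 arrays, 3 residual degrees of freedom, two-sided, Benjamini-Hochberg over 13484 genes, threshold 0.05). Errors are limma's SE with n = 2 arrays per stage. The script was tested on simulated data. By rule, all 9 genes were named, genes of the lists with their values (the largest changes past the threshold first), and the 5 genes nearest in course. The members and lists were chosen with earlier results of these data known. Figures used matplotlib 3.10.9. Alternatives were normexp (offset 50), quantile and median scaling, other filters, probe means, single probes, a trended robust prior, a replicate block, 4 arrays only and each array left out.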

Additional observations from a re-analysis of the deposited data

How the results depend on the processing

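The first-day and whole-window rises kept their calls under every scaling, filter, probe choice and prior tried, except Fdxr (Lhcgr was not tested under the filter for all 6 arrays). Fdxr passed in the first day with a trended robust prior (0.41, adjusted p = 0.044) and when replicate 1 of E12.5 was dropped (0.61, adjusted p = 0.0372), and over the window it failed without the background filter (adjusted p = 0.057) and with 4 arrays only (adjusted p = 0.0517), as well as where stated above. With Lhcgr counted, the number of the 9 genes higher ran from 7 to 8 in both comparisons when single arrays were left out, and the number lower in the first day from 0 to 1. No direction of a called value reversed in any setting. Median scaling shifted every gene by -0.15 over the window. Normexp, which lifts dim signals, gave 1.27 for Lhcgr in the first day and 1.60 over the window where the main values were 3.67 and 4.16.

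Counts over all tested genes moved more. Tested probe by probe, 7777 and 11401 probes passed in the first day and over the window, where probes outnumber genes. Without single arrays the first-day count ran from 1396 (without the second E13.5 array) to 4001, the window's from 3961 (without the second E14.5 array) to 5423 and the second day's from 0 to 47. In the second day 402 genes passed with normexp, 352 with the trended robust prior and 95 with median scaling, against 7, and 5, 4 and 1 of the 9 genes. The count was 1 probe by probe and 0 with no filter, the all-array filter, probe means or 4 arrays only.

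For the second step against the first, 67 genes passed. The count was 503 with normexp, 565 with the trended robust prior, 265 with the all-array filter, 173 with median scaling, 42 with quantile scaling, 25 with probe means, 10 probe by probe, 0 with no filter and 0 to 71 without single arrays. Of the 9 genes, 2 were lower, against 5 with median scaling or the trended robust prior, 4 with normexp or the all-array filter, 1 with quantile scaling or probe means, 0 probe by probe or with no filter, and 0 to 1 without single arrays. Mc2r made 1 higher with the all-array filter and with the trended robust prior. The causes were not tested.

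The differences between duplicates correlated at -0.043 for E12.5 and E13.5, -0.06 for E12.5 and E14.5, and 0.229 for E13.5 and E14.5. The main fit did not pair arrays by number, although the 2 later stages were weakly correlated. With the number as a replicate block, 1 gene passed in the second day and 5 in the second step against the first, where 0 of the 9 genes then passed, and the counts of the 9 genes in the other comparisons were as given. The replicate block narrowed the first-day SE of Cyp17a1 (0.28 to 0.13) and Cyp11a1 (0.23 to 0.16), among others. It widened that of Fdx1 and Mc2r (0.1 to 0.11 for both). Slide could not be fitted as a block for E12.5. With 2 arrays per stage, precision is low, and dim signals such as Lhcgr at E12.5 allow only bounds.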
